A study of Mus musculus with 15 samples.

Results

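The comparison concerns 2 groups of wild-type control libraries from the retinal pigment epithelium (RPE) of female mice at postnatal day 14, RNA being taken from 2 hours after light onset. The groups were picked by title, and together they hold 8 of the 15 libraries of the series; every gene that passed a count filter in them was compared, 13459 of 46078. One group, Bai1 Tg neg, has 4 libraries with wild-type Mertk that are transgene-negative by title and served as controls for 3 libraries with a Bai1 transgene (Bai1 Tg pos). The other, Mertk WT, has 4 libraries that served as controls for 4 Mertk knockout libraries (Mertk KO). By the labels, the 8 control libraries share Mertk genotype, sex, age, time of day, tissue and a strain label naming a mixture of C57BL/6J and B6;129-Mertktm1Grl/J, the line that carries the Mertk knockout allele. They differ in the set, and in tag numbers in the descriptions whose first part is 12 for every Bai1 library and 17 or 21 for the Mertk libraries. It is 21 for Mertk WT 4 and Mertk KO 4 and 17 for the other Mertk libraries. The labels do not say what the tags mean, how much of each strain a mouse carried, or what drives the transgene. Set, tag and strain share therefore cannot be told apart. Whether each library came from its own animal is not stated, and the p-values then speak only of library-to-library spread, some of which may be technical.

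The RPE is a pigmented epithelium that lies against the tips of the photoreceptors, recycles their retinoid and engulfs the outer segments they shed each morning. Rod photoreceptors are the most numerous cells of the mouse retina and their outer segments stay attached to the RPE surface, so RPE preparations usually hold some rod RNA. Immediate early genes such as Fos and Egr1 are transcribed within minutes of stimulation and are known to respond to the handling and dissociation of tissue, as are the heat shock chaperones. The mevalonate pathway makes the isoprenoid precursors of cholesterol, and its enzymes are mostly induced together by SREBP transcription factors when cells lack sterol.

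The titles were first set against the targeted genes. Adgrb1, the gene of Bai1, was at 0, 0.118, 0.143 and 144 CPM (fragments of a gene relative to all fragments of the library, TMM-scaled) in Bai1 Tg neg 1 to 4 and at 0.203, 0.43, 0.0666 and 0 CPM in Mertk WT 1 to 4. The Bai1 Tg pos libraries held 169, 169.8 and 167 CPM. The library titled Bai1 Tg neg 4 thus lay near the transgenic libraries and goes against its title, so results are given with it, as titled, and without it. Mertk, the receptor for outer segment uptake, was at 219.5, 226, 219.9 and 248 CPM in Bai1 Tg neg and at 239.6, 259, 252 and 234 CPM in Mertk WT, and the ranges overlapped. Rpe65, the retinoid isomerase of the RPE, was at 5232, 5121, 5310.1 and 5799 CPM and at 4281, 6581, 5015 and 5549 CPM, again overlapping (adjusted p = 0.999 by edgeR). Totals were 9591129 to 20024507 counted fragments, and the shallowest of the 8 was Mertk WT 4.

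Few genes separated the control sets by the test. Of 13459 genes that passed the count filter, 14 were higher and 44 lower in Bai1 Tg neg (edgeR quasi-likelihood test, adjusted p under 0.05), which is 0.431% of the genes tested (0.104% and 0.327%). The 14 higher genes had a median log2 fold change of 0.89 and the 44 lower ones of -3.02. At least 2-fold were 6 and 38 of them, 0.327% of genes tested. Of the lower genes, 25 passed the filter only through their level in Mertk WT and 21 stood at or below 1 CPM in every Bai1 Tg neg library, so many rest on low counts. Without Bai1 Tg neg 4, 13 genes were higher and 15 lower (0.0948% and 0.109%), 0.204% of 13710 tested. These include 10 of the 14 higher and 14 of the 44 lower genes; each of the 58 kept its sign, and the median of the lower ones was -2.87.

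Bai1 Tg neg 4 was not the only library on which the calls rested. Leaving out Bai1 Tg neg 1, 2, 3 or 4 ended the call of 45, 44, 23 and 34 of the 58 genes, and leaving out Mertk WT 1, 2, 3 or 4 that of 2, 12, 25 and 5. Only 13 genes stayed past the threshold in all 8 of these fits. They were Gcc1, Rplp0, Idi1, Ubald1 and Fdps among the higher, and Vtn, Fabp12, Cadm3, Dscaml1 and the gene models Gm9625, Gm8730, Gm14681 and Gm5611 among the lower. Fabp12, Cadm3, Dscaml1, Gm14681 and Gm5611 passed the filter only through Mertk WT. Their highest levels in Bai1 Tg neg were 0.713, 0.15, 0.349, 0.31 and 0.0713 CPM. Mertk WT 2 and 3 were the highest pair of the 8 for 39 of the 44 lower genes. All 44 had every Bai1 Tg neg library below every Mertk WT library, and among the 377 tested genes with that order the pair was highest for 159, or 42.2%. Without both, 79 genes were higher and 89 lower (1.2% of those tested), and 32 of the 58 calls remained.

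Rod transcripts were lower in Bai1 Tg neg. All 20 genes of the rod list were tested, 17 of them above the filter limit in every library of both sets, and the fitted change was below 0 in each, with a median log2 fold change of -3.31 against 0.00 for all genes tested (-3.14 over the 17). Of the 20, 18 were lower in every Bai1 Tg neg library than in any Mertk WT library, a pattern held by 2.8% of tested genes; 15 of these 18 were among the 17. In all, 18 had an unadjusted p under 0.05 (3.8% of all genes on the lower side). Only 3, Samd7, Esrrb and Rom1, passed the adjusted threshold, where 0.327% of all genes were called lower; DESeq2 called 17, and 1.18% of all genes. Without Bai1 Tg neg 4 the median of the 20 was again -3.31 and 0 were called by edgeR, where 0.109% of all genes were called lower. In bulk RNA, fewer cells of a type and less RNA per cell cannot be told apart. Rod and RPE genes share 1 scale here, and the RPE identity list had a median of -0.02.

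Gnat1, the rod transducin alpha subunit, was at 12, 16.7, 73.2 and 24.1 CPM in Bai1 Tg neg 1 to 4 and at 147, 774, 524 and 212 CPM in Mertk WT 1 to 4. The sets did not overlap, Bai1 Tg neg 3 was the highest of its set, and Mertk WT 2 and 3 were well above Mertk WT 1 and 4. With this spread the log2 fold change of -3.73 ± 0.855 (SE) had an adjusted p of 0.228 by edgeR, 0.442 without Bai1 Tg neg 4, and 0.000185 by DESeq2. Sag, rod arrestin, was at 3.88, 8.28, 24.2 and 10 CPM and 78.5, 361, 230.2 and 80 CPM (adjusted p = 0.179). Pde6b, a subunit of the rod phosphodiesterase, was at 2.79, 2.07, 5.21 and 2.45 CPM and 19.9, 97.6, 80.7 and 21.4 CPM (adjusted p = 0.123). For all 3, no Bai1 Tg neg library reached any Mertk WT library, and Mertk WT 2 and 3 were the highest pair.

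The 3 called rod genes differ in level. Samd7 (chromosome 3, 30746293 to 30767174), a repressor of transcription in rods, had 0.31, 0.0591, 0.143 and 0 CPM in Bai1 Tg neg and 1.62, 8.34, 7.2 and 2.51 CPM in Mertk WT. It was under the 0.666 CPM filter limit in every Bai1 Tg neg library and passed the filter only through Mertk WT. Its log2 fold change was -5.37 ± 0.805 (adjusted p = 0.0218 by edgeR), and -4.88 with an adjusted p of 0.0687 without Bai1 Tg neg 4. Esrrb (chromosome 12, 86361117 to 86521628), an orphan nuclear receptor needed for rod survival, had 0.853, 1, 2.21 and 1.05 CPM and 5.13, 16.4, 16.4 and 6.37 CPM (log2 fold change -3.14 ± 0.487, adjusted p = 0.0323 by edgeR, 0.132 without Bai1 Tg neg 4). Rom1 (chromosome 19, 8927382 to 8929356), a tetraspanin of the outer segment disc rim, was far more abundant, at 150.4, 142, 173 and 141 CPM against 199, 223, 254 and 201 CPM. It fell by much less, its log2 fold change being -0.54 ± 0.0943 (adjusted p = 0.0265 by edgeR, 0.106 without Bai1 Tg neg 4). The most abundant members, Slc24a1 and Gnb1, stood at 1074 to 1266 and 547 to 625 CPM even in Bai1 Tg neg, and their log2 fold changes were only -0.23 and -0.41 (adjusted p = 0.348 and 0.0984).

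**Figure D1:**
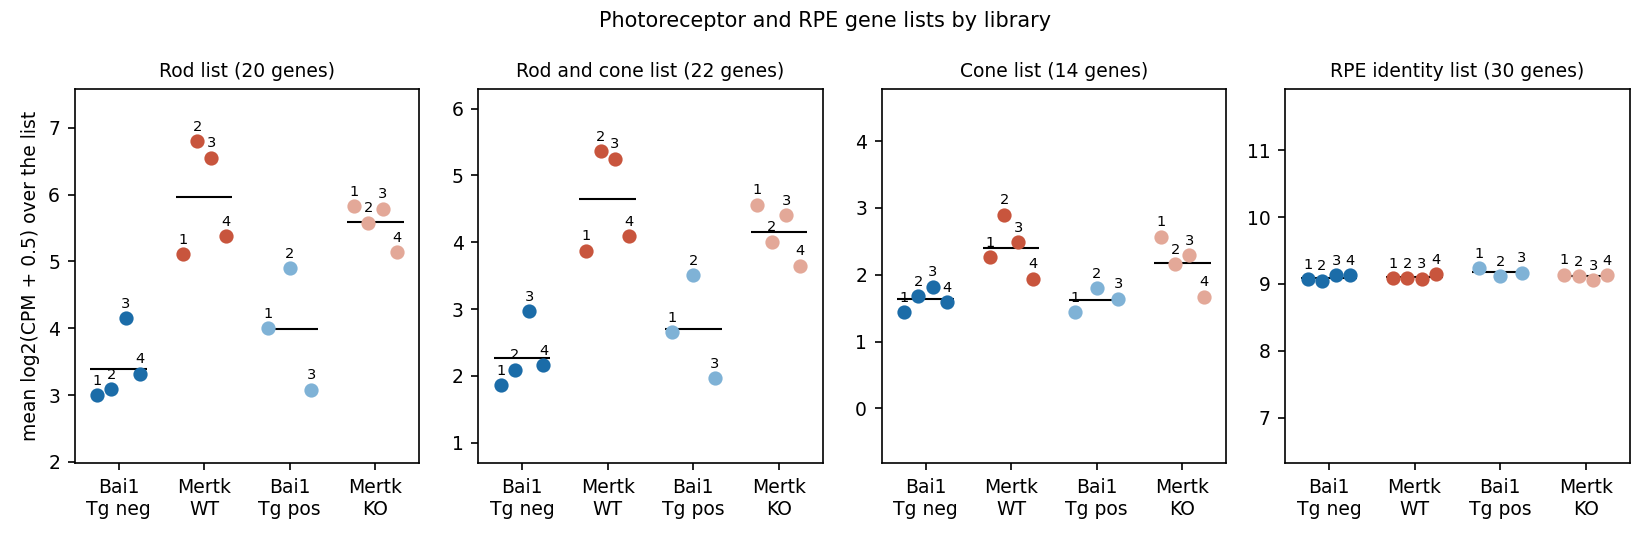
Mean log2(CPM + 0.5) over each gene list, per library (numbered points) and group (bar: mean); every panel spans the same log2 range. On the rod list the Bai1 Tg neg libraries lie between 3.00 and 4.15 and the Mertk WT libraries between 5.11 and 6.80, while on the RPE identity list the 15 libraries lie close together.

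Averaged over the rod list, log2(CPM + 0.5) was 3.00, 3.09, 4.15 and 3.32 in Bai1 Tg neg 1 to 4 and 5.11, 6.80, 6.55 and 5.38 in Mertk WT 1 to 4, that is 3.39 ± 0.52 and 5.96 ± 0.84 (SD, n = 4 each). Without Bai1 Tg neg 4 the first was 3.41 ± 0.64 (n = 3). The same split ran through libraries that no control comparison used: the 3 Bai1 Tg pos libraries had 4.00, 4.90 and 3.08 and the 4 Mertk KO libraries 5.83, 5.58, 5.79 and 5.14. All 7 Bai1 libraries therefore lay below all 8 Mertk libraries, and Bai1 Tg pos 2 came nearest.

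A list of genes that rods and cones share has 22 members. All were tested, 13 of them above the limit in every library, with a median of -3.39 (-2.86 over the 13) against 0.00 for all genes tested. Of the 22, 2 were called lower, beside 0.327% of all genes. Both, Guca1a and Neurod1, were under the 0.666 CPM filter limit in some or all Bai1 Tg neg libraries. They passed the filter only through Mertk WT, the group where they are high. The sets did not overlap for 18 of the 22, beside 2.8% of all genes. Only 10 of these 18 were among the 13, the other 8 having passed the filter through Mertk WT. Guca1a (chromosome 17, 47394560 to 47400584), which activates guanylate cyclase in photoreceptors, fell from 3.24, 11.8, 6.53 and 4.07 CPM in Mertk WT to 0.31, 0.414, 1.14 and 0.599 CPM in Bai1 Tg neg (log2 fold change -3.39 ± 0.498, adjusted p = 0.0175 by edgeR, 0.0783 without Bai1 Tg neg 4). Neurod1, a transcription factor of photoreceptor differentiation, had 0.0775, 0, 0.285 and 0 CPM and 1.49, 4.03, 7.26 and 2.61 CPM (log2 fold change -5.46 ± 0.814, adjusted p = 0.0177 by edgeR, 0.0575 without Bai1 Tg neg 4). Its exons overlap those of Cerkl, a retinal gene on the same strand. On the cone list, 11 of 14 members were tested and 1 was called lower: Gnb3, the cone transducin beta subunit, with 0.853, 0.769, 2.14 and 1.45 CPM and 6.89, 10.7, 6.93 and 3.44 CPM (log2 fold change -2.44 ± 0.386, adjusted p = 0.0203 by edgeR, 0.0743 without Bai1 Tg neg 4). The median of the 11 was -0.44, and 3 were lower in every Bai1 Tg neg library than in any Mertk WT library, 2 of them above the limit in every library; the shares of all genes are those just given. Without Bai1 Tg neg 4, 13 cone list members were tested, with a median of -0.91. The list shared by rods and cones then had a median of -3.34. On both lists 0 were called, where 0.109% of all genes were called lower.

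The promoters of 2 genes are shown because Samd7 and Guca1a fell together and both windows hold TAATCC, the core letters bound by the photoreceptor factor CRX, on the minus strand relative to the gene, in capitals as GGATTA. The windows run from 250 bases before to 50 after the start site of the promoter table, which for Guca1a and Idi1 is not the end of the gene span printed here, and are RefSeq sequence of GRCm38.p6, chr3:30746043-30746342 on the plus strand and chr17:47400557-47400856 on the minus strand, written 5′ to 3′ along the gene.
Samd7: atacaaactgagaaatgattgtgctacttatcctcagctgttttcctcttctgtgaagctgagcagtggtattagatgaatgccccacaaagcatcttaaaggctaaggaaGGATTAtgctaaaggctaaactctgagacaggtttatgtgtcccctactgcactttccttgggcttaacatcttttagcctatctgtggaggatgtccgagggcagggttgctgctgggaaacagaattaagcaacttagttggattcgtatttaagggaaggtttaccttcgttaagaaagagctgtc
Guca1a: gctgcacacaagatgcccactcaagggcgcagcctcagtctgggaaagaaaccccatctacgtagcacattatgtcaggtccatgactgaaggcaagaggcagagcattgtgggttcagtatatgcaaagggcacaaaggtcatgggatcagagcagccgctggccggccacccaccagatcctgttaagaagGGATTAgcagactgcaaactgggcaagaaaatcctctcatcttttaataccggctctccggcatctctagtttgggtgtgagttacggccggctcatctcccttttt
TAATCC on either strand was in 10 of the 32 called lower genes with an entry in the table, in 1 of 10 called higher genes, and in 7.06% of 32851 promoter windows of the same length. Called genes were counted once each, whereas 7.06% is a share of windows, of which a gene can have several, so the shares are not like for like. The lower genes were picked from these same data, and 25 of the 44 passed the filter only through Mertk WT. These counts are a description of letters, not of binding, and enrichment was not tested.

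Beyond the photoreceptor lists, 38 of the 44 lower genes were on no list. Being on no list does not set a gene apart from photoreceptors. Cacna1f, the photoreceptor calcium channel, was among the 38 (log2 fold change -5.26, adjusted p = 0.0234 by edgeR). The following were named from among them, and their choice tests no theme. Syp, the synaptic vesicle protein synaptophysin, was at 1.16, 0.887, 0.713 and 1.1 CPM in Bai1 Tg neg and 6.08, 18.1, 14.5 and 4.7 CPM in Mertk WT (log2 fold change -3.50 ± 0.47, adjusted p = 0.0175 by edgeR, 0.0734 without Bai1 Tg neg 4). Doc2b, a calcium sensor of vesicle release, was at 0.233, 0.118, 0.357 and 0.0499 CPM and 2.23, 6.94, 6.13 and 1.98 CPM, and its call held without Bai1 Tg neg 4 (adjusted p = 0.00646 and 0.0294). Cadm3 and Dscaml1, adhesion molecules of neurons, had log2 fold changes of -4.69 and -4.48, with at most 0.15 and 0.349 CPM in Bai1 Tg neg and at least 1.28 and 2.3 CPM in Mertk WT. Like Doc2b, both passed the filter only through Mertk WT. Lhfpl4, a partner of GABA-A receptors, had 0 counts in Bai1 Tg neg and 72 over Mertk WT, or 26.4-fold lower when 3 counts are taken as the floor over the group. The upper 95% limit of the ratio of Bai1 Tg neg to Mertk WT, from counting error only, was 0.0477.

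After Rom1, the lower genes with the highest levels in Bai1 Tg neg included Vtn, Ppp2r2c and Fam57b. Vtn (chromosome 11, 78499091 to 78502324), encodes vitronectin, an adhesive glycoprotein that binds alpha-v integrins. It was at 29.1, 31.1, 35 and 34.8 CPM in Bai1 Tg neg and 50.8, 71.2, 62.1 and 54.4 CPM in Mertk WT. The sets did not overlap, and Mertk WT 2 and 3 were again the highest pair (log2 fold change -0.88 ± 0.114, adjusted p = 0.00509 by edgeR, 0.0145 without Bai1 Tg neg 4, and at most 0.0318 without any 1 library). Its Bai1 Tg pos and Mertk KO levels, 43.4, 40.8 and 33.1 CPM and 46, 41.6, 45.4 and 41.1 CPM, overlapped. Fam57b, an enzyme of ceramide metabolism in photoreceptors, was at 16.3, 17.6, 22.5 and 18.4 CPM and 42.6, 67.8, 73.4 and 39.6 CPM (log2 fold change -1.59 ± 0.218, adjusted p = 0.0203 by edgeR, 0.0757 without Bai1 Tg neg 4). Fabp12, a fatty acid binding protein, was at 0.155, 0.414, 0.713 and 0.25 CPM and 3.65, 8.23, 4.73 and 2.51 CPM, with an adjusted p of 0.00541 and of 0.0316 without Bai1 Tg neg 4. Ppp2r2c, a regulatory subunit of protein phosphatase 2A, was at 27.6, 30.6, 23.5 and 27.5 CPM and 41.5, 35.7, 43.7 and 38.3 CPM (log2 fold change -0.55, adjusted p = 0.0383 by edgeR, 0.108 without Bai1 Tg neg 4). Thrsp, a regulator of lipid synthesis, was 1 of the 5 lower genes for which Mertk WT 2 and 3 were not the highest pair, the others being Ppp2r2c and the gene models Gm5611, Gm8730 and Gm9625: it had 4.34, 6.44, 7.27 and 7.69 CPM and 15.9, 10.9, 14.5 and 17.5 CPM (log2 fold change -1.18, adjusted p = 0.0203 by edgeR, 0.0418 without Bai1 Tg neg 4).

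Immediate early genes leaned higher in Bai1 Tg neg, and none passed the adjusted test. Of 36 listed, 31 were tested, 27 with a fitted change above 0 and 4 below, with a median log2 fold change of 0.55. By edgeR 0 were called; 16 had an unadjusted p under 0.05, all higher, against 4.2% of all tested genes, and DESeq2 called 7 higher, with 0.349% of all genes. In 10 of the 31 every Bai1 Tg neg library lay above every Mertk WT library, a pattern of 2.93% of tested genes. Without Bai1 Tg neg 4, which was the lowest of its set for 18 of the 31, the median was 0.68 and 1 gene, Maff, was called, where 0.0948% of all genes were.

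Btg2, an antiproliferative early response gene, had the smallest p of the list, with 804, 969, 652 and 642 CPM in Bai1 Tg neg and 435, 470.5, 405 and 310.2 CPM in Mertk WT. Its sets did not overlap (log2 fold change 0.91 ± 0.164, adjusted p = 0.0624 by edgeR, 0.0711 without Bai1 Tg neg 4, 2.6e-07 by DESeq2). Maff, a small Maf transcription factor, was at 57.8, 86, 60 and 39.6 CPM and 14.7, 20.1, 27.1 and 13.9 CPM, the lowest Bai1 Tg neg library being neg 4 (log2 fold change 1.67 ± 0.293, adjusted p = 0.0817; 1.83 ± 0.25 and 0.0456 without neg 4). Arc, an activity-regulated neuronal gene, had 14.3, 14.1, 8.34 and 10.7 CPM and 5.81, 3.93, 7.06 and 3.13 CPM (adjusted p = 0.0678, 0.138 without Bai1 Tg neg 4). The classic member Fos was at 1533, 1735, 1256 and 1162 CPM and 932, 814, 1001 and 476 CPM, Mertk WT 4 being the lowest of the 8 (adjusted p = 0.375). Egr1, a zinc finger factor of the same wave, was at 1870.5, 1929, 1357 and 1369 CPM and 1081, 815, 1279.7 and 774 CPM (adjusted p = 0.258). Members did not all share the pattern: Nr4a3, an orphan nuclear receptor, was highest of all in Mertk WT 3, at 39.6 CPM against at most 14.6 CPM in Bai1 Tg neg.

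**Figure D2:**
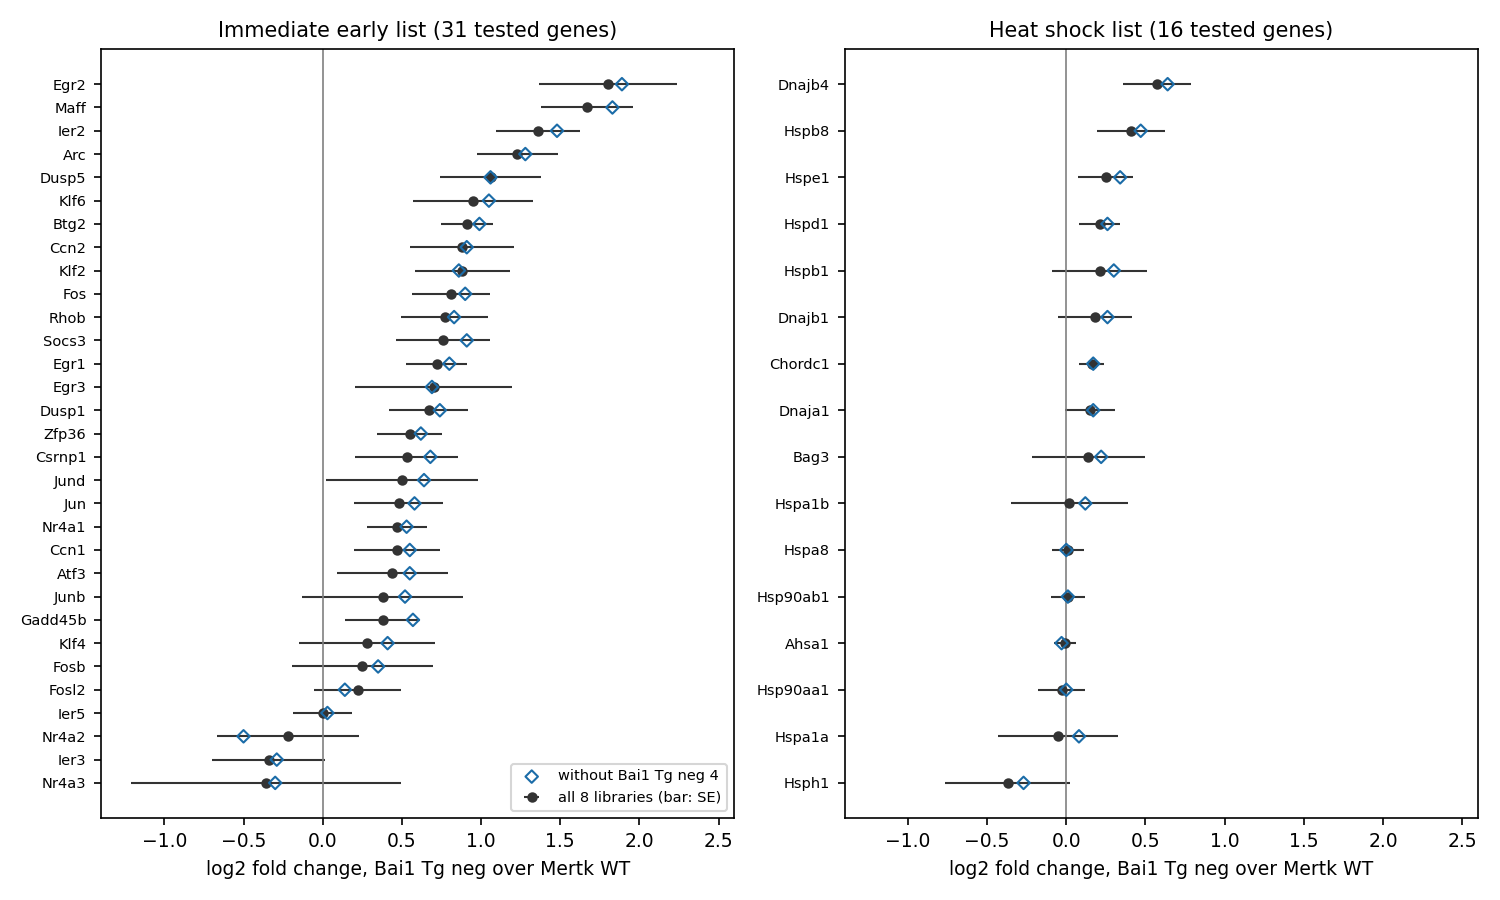
Log2 fold change of each tested immediate early gene (left) and heat shock gene (right), Bai1 Tg neg over Mertk WT, with the SE (filled points and bars) and without Bai1 Tg neg 4 (open diamonds). The immediate early genes centre on 0.55 and the heat shock genes on 0.14, and leaving out the library moves most points slightly to the right.

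Averaged over the immediate early list, log2(CPM + 0.5) was 5.69, 5.76, 5.46 and 5.43 in Bai1 Tg neg 1 to 4 and 5.13, 4.78, 5.52 and 4.48 in Mertk WT 1 to 4. The ranges overlapped, since Mertk WT 3 lay above Bai1 Tg neg 3 and 4. The other 7 libraries had 5.77, 5.60 and 5.03 in Bai1 Tg pos and 4.70, 5.23, 5.71 and 3.93 in Mertk KO, which overlap and spread over a wider range in Mertk KO than in Bai1 Tg neg. The 16 heat shock genes, all tested, gave 0 calls by edgeR and 0 by DESeq2, and a median of 0.14 (0.17 without Bai1 Tg neg 4). Only 1 was higher at an unadjusted p under 0.05, beside 4.2% of all genes. Dnajb4, a co-chaperone, had that p, with 126, 132, 115 and 103 CPM and 74.5, 87.1, 107 and 48.9 CPM (adjusted p = 0.514). The stress-inducible Hspa1a was at 447, 329, 364 and 251 CPM and 398, 244, 594 and 197 CPM, with the highest and the lowest of the 8 values both in Mertk WT (log2 fold change -0.05). Mertk WT 4 was the lowest of its set for 23 of 31 immediate early and 15 of 16 heat shock genes, against 23.5% of all genes tested. It is the only control library with first tag number 21. Without it the immediate early median was 0.41 and the heat shock median -0.02. Mertk KO 4, which shares that tag number, had the lowest mean of its set on both lists, 3.93 and 7.42. The part of the tag in these values was not tested.

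Among sterol genes, 2 enzymes of 1 stretch of the mevalonate pathway rose, and the median of the whole list was near 0. Idi1 (chromosome 13, 8885501 to 8892451) makes dimethylallyl diphosphate, and Fdps (chromosome 3, 89093588 to 89101959) condenses it to farnesyl diphosphate. Idi1 was at 74, 97.1, 74.4 and 57.2 CPM in Bai1 Tg neg and 33.9, 35.1, 31.9 and 27.3 CPM in Mertk WT, or 75.7 ± 16.4 and 32.1 ± 3.4 CPM (SD, n = 4 each). All 4 Bai1 Tg neg libraries lay above all 4 Mertk WT libraries, neg 4 being the lowest of the 4 (log2 fold change 1.23 ± 0.145, adjusted p = 0.00509 by edgeR; 1.34 ± 0.122 and 0.00118 without neg 4). Fdps was at 47.8, 63.7, 57.4 and 43.7 CPM and 32, 23.2, 20.9 and 21.9 CPM, or 53.1 ± 9.11 and 24.5 ± 5.06 CPM. Again no values overlapped and neg 4 was the lowest of its set (log2 fold change 1.11 ± 0.152, adjusted p = 0.00897 by edgeR; 1.20 ± 0.151 and 0.0136 without neg 4). Both genes have near-identical copies elsewhere in the genome, and with those summed in the log2 fold changes were 1.08 and 1.07 (adjusted p = 0.0323 and 0.0182).

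The Idi1 promoter is shown since its gene has the largest sterol change. It is chr13:8885356-8885655 on the plus strand of GRCm38.p6 from RefSeq, and capitals mark ATTGG, the reverse of CCAAT, the box bound by NF-Y, which acts beside SREBP at many sterol promoters; CCAAT on either strand is in 37.4% of all promoter windows.
Idi1: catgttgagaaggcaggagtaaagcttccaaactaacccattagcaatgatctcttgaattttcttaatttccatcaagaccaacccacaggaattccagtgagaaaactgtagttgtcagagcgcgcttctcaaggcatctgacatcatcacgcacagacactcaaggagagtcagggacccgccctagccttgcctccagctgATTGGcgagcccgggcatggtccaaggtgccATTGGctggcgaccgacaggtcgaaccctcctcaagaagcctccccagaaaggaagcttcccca
Fdps had no entry in the promoter table.

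**Figure D3:**
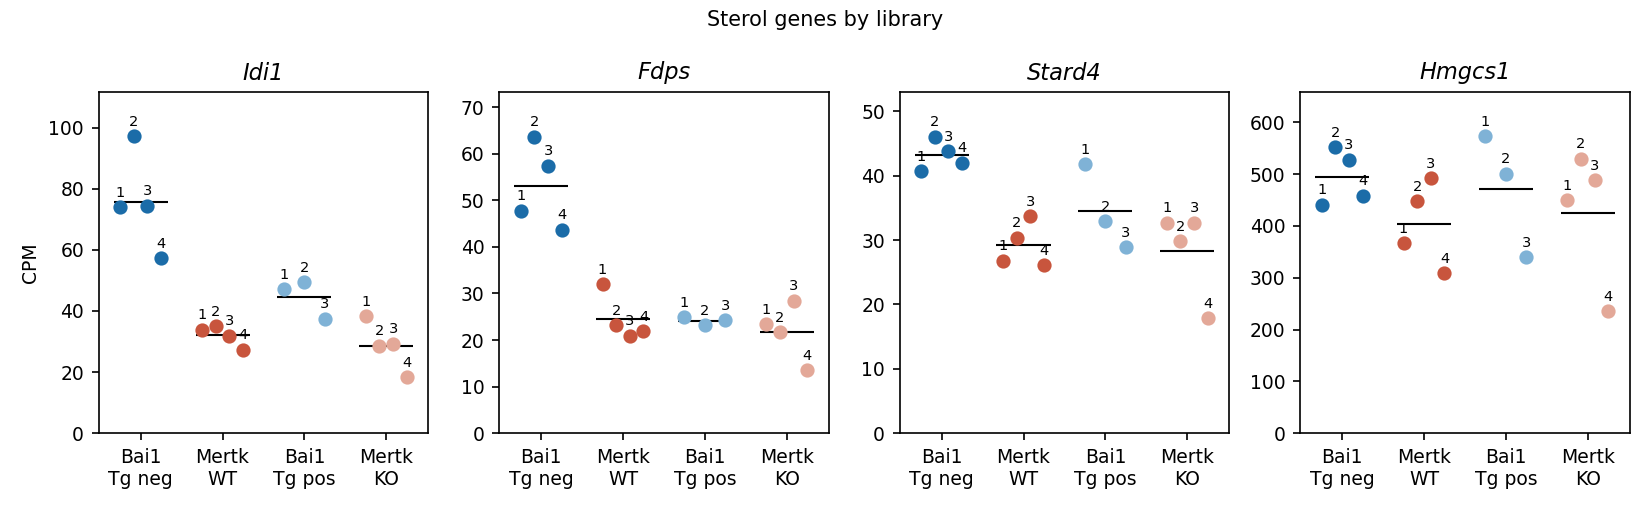
CPM of 4 sterol genes in each of the 15 libraries (numbered points) with the group mean (bar). Idi1, Fdps and Stard4 are higher in all 4 Bai1 Tg neg libraries than in any Mertk WT library, Hmgcs1 overlaps, and for Fdps the Bai1 Tg pos libraries lie within the range of Mertk WT.

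The other 18 of the 20 synthesis genes, all tested, did not pass, and the list's median log2 fold change was 0.09 (0.08 without Bai1 Tg neg 4), with 12 above 0 and 8 below. The 2 calls stand beside 0.104% of all genes called higher. At an unadjusted p under 0.05 by edgeR, 4 of the 20 were higher and 0 lower, beside 4.2% and 3.8% of all genes. In 3 every Bai1 Tg neg library lay above every Mertk WT library, beside 2.93%. Msmo1 and Lss had 0.26 and 0.34 (adjusted p = 0.3 and 0.371 by edgeR). Hmgcs1, an enzyme of an early step, differed by 0.29 ± 0.14 on the log2 scale (adjusted p = 0.669). Sqle and Fdft1, which commit farnesyl diphosphate to sterol, had 0.07 and -0.08. Mvd, the enzyme just before Idi1, had -0.23 (adjusted p = 0.783), its highest level of the 8 being 73.3 CPM in Mertk WT 1. Averaged over the list, log2(CPM + 0.5) was 6.26 ± 0.10 in Bai1 Tg neg and 6.08 ± 0.08 in Mertk WT (SD, n = 4 each).

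Among 12 tested genes of sterol control and uptake, Stard4, a cytosolic sterol carrier, rose, with 40.7, 46.1, 43.8 and 42 CPM in Bai1 Tg neg and 26.8, 30.4, 33.7 and 26.1 CPM in Mertk WT (log2 fold change 0.55 ± 0.0998, adjusted p = 0.0304 by edgeR). The sets did not overlap, but the adjusted p was 0.0846 without Bai1 Tg neg 4 and the call was lost in 6 of the 8 fits that leave out 1 library. Insig1, an SREBP retention protein, differed by 0.35 on the log2 scale without passing (adjusted p = 0.478), and Srebf2, the SREBP that drives the pathway, had -0.07. None of 9 tested sterol efflux genes passed by edgeR or DESeq2; 1 had an unadjusted p under 0.05, Cyp27a1, a sterol hydroxylase, at -0.43.

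In the libraries with other genotypes the sterol genes did not follow the set alike. Bai1 Tg pos held 47.1, 49.5 and 37.5 CPM of Idi1 and Mertk KO held 38.3, 28.6, 29.3 and 18.4 CPM, with Mertk KO 1 above Bai1 Tg pos 3 (log2 fold change 0.64 ± 0.21, adjusted p = 0.202). For Fdps the values were 24.9, 23.2 and 24.3 CPM and 23.4, 21.7, 28.4 and 13.5 CPM, which overlap and, apart from Mertk KO 4, lie within the range of Mertk WT (log2 fold change 0.15 ± 0.2, adjusted p = 0.766). The Fdps changes differed by 0.96 on the log2 scale, with an unadjusted p of 0.00286 and an adjusted p of 0.319 over all genes.

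Rplp0, a ribosomal stalk protein, was called higher, and 2 gene models copied from it were called lower. Rplp0 (chromosome 5, 115559467 to 115563727) was at 161, 149, 159.5 and 154 CPM in Bai1 Tg neg and 108, 79.3, 90 and 102 CPM in Mertk WT (log2 fold change 0.72 ± 0.088, adjusted p = 0.00378 by edgeR, 0.0142 without Bai1 Tg neg 4). Its copy Gm8730 (chromosome 8) was at 22.2, 20.4, 27.6 and 20.6 CPM and 53, 40.6, 52 and 50.4 CPM (log2 fold change -1.12 ± 0.118, adjusted p = 0.00157). Gm9625 (chromosome 13) was at 12.7, 11.5, 11.2 and 11.8 CPM and 25.4, 24.3, 26.2 and 22 CPM (log2 fold change -1.06 ± 0.107, adjusted p = 0.00157). The 3 transcripts are 98.7% (Gm8730) and 97.4% (Gm9625) identical to Rplp0 over the aligned bases, as a stretch of 90 coding bases shows. It covers positions 214 to 303 from the start codon of Rplp0 in the GENCODE transcripts, and capitals mark the 6 positions where the sequences differ.
Rplp0: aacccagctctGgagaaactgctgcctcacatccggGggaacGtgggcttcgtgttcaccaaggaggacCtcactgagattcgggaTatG
Gm8730: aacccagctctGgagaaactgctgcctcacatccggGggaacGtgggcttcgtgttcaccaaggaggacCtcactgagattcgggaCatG
Gm9625: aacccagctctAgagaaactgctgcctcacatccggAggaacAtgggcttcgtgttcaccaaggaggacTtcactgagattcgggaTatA
Gm8730 differs from Rplp0 at 1 and Gm9625 at 5 of these bases, so fragments of 1 gene can be assigned to another.

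Summed over Rplp0 and its 4 copies, the difference did not pass the test: 198, 184, 202 and 189.5 CPM in Bai1 Tg neg and 191, 149, 172 and 180.5 CPM in Mertk WT (log2 fold change 0.15 ± 0.079, adjusted p = 0.676 by edgeR). What differed was the share of the sum assigned to Rplp0, 81.1, 81.2, 78.9 and 81.4% in Bai1 Tg neg and 56.4, 53.1, 52.2 and 56.3% in Mertk WT. The share fell into 2 ranges over all 15 libraries. The Mertk KO libraries had 51.5, 51, 51.8 and 58.1%, like Mertk WT, whereas the Bai1 Tg pos libraries had 54.7, 77.4 and 81.3%, so that Bai1 Tg pos 1 lay with the Mertk libraries and the other 2 near Bai1 Tg neg. The gene models Gm14681 and Gm5611, copies of the nucleolar gene Npm1, were also called lower: Gm14681 was at 0.31, 0.296, 0.214 and 0.0998 CPM in Bai1 Tg neg and 4.53, 5.11, 8.33 and 2.3 CPM in Mertk WT, and summed with Npm1 the log2 fold change was 0.16 (adjusted p = 0.714). Mertk KO 1, at 0.266 CPM, lay with the Bai1 libraries for Gm14681, whereas Mertk KO 2 to 4, at 4.96, 4.84 and 3.89 CPM, lay within the range of Mertk WT. Gm5611 did not split in this way. It was at 2.16, 1.4, 2.6 and 1.36 CPM in Mertk WT and at 0, 0.201, 0.346 and 0.531 CPM in Mertk KO. Every Mertk KO library thus lay below every Mertk WT library for Gm5611.

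**Figure D4:**
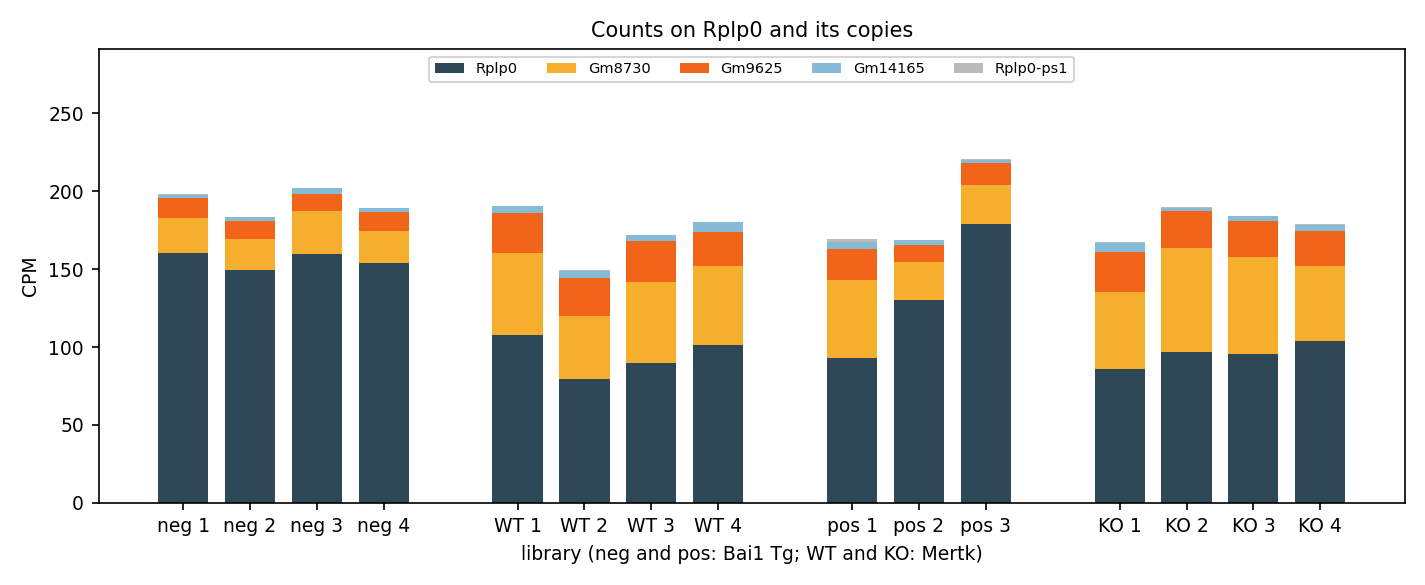
CPM assigned to Rplp0 and 4 near-identical copies in each of the 15 libraries, stacked. The total bars of the control sets overlap in height, while the part on Rplp0 is larger in Bai1 Tg neg (78.9% to 81.4%) than in Mertk WT (52.2% to 56.4%), and Bai1 Tg pos 1 resembles the Mertk libraries.

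The remaining higher genes did not form a list fixed for this comparison. Gcc1 (chromosome 6, 28416091 to 28428390), a coiled-coil protein of the Golgi, was at 93.3, 114, 70 and 88.3 CPM in Bai1 Tg neg and 41.3, 41.5, 46.6 and 42 CPM in Mertk WT (log2 fold change 1.09 ± 0.126, adjusted p = 0.00378 by edgeR, 0.0137 without Bai1 Tg neg 4). Counting used no strand, and Gcc1 overlaps Arf5 on the other strand, which was at 51.8, 46.7, 50 and 39.4 CPM and 54, 29.5, 51.5 and 48.2 CPM. Sytl2, a Rab27 effector in membrane traffic, was at 180.3, 174, 157 and 183 CPM and 114, 124, 126 and 113 CPM (log2 fold change 0.54 ± 0.0744, adjusted p = 0.00681, 0.0316 without Bai1 Tg neg 4). Sat1, which acetylates spermidine and spermine, was at 117, 120.0, 101 and 84.7 CPM and 57.6, 59.2, 43.8 and 38 CPM (log2 fold change 1.08 ± 0.158, adjusted p = 0.0207, 0.0138 without Bai1 Tg neg 4). Its Bai1 Tg pos and Mertk KO levels, 99.9, 104 and 72.5 CPM and 51.4, 54.1, 58.5 and 35.6 CPM, did not overlap either (adjusted p = 0.0682).

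Cd68, a lysosomal glycoprotein of macrophages, rose from 8.11, 5.92, 4.8 and 5.74 CPM in Mertk WT to 13.9, 16.4, 12.7 and 10.1 CPM in Bai1 Tg neg (log2 fold change 1.11 ± 0.193, adjusted p = 0.0263 by edgeR, 0.0294 without Bai1 Tg neg 4). It was the 1 called member of the 3 tested on the macrophage and microglia list of 20, and the list's summed level overlapped, at 622 to 652 CPM in Bai1 Tg neg and 640.0 to 709 CPM in Mertk WT, nearly all of it Csf1r. Splicing genes Clk1, an SR protein kinase, and Hnrnph1, an RNA-binding protein, had log2 fold changes of 0.45 ± 0.0804 and 0.41 ± 0.0753 (adjusted p = 0.0273 and 0.0354 by edgeR, 0.0145 and 0.0687 without Bai1 Tg neg 4). Dnajb9, an endoplasmic reticulum co-chaperone, was the 1 called gene of 21 tested on the ER stress list, at 98.9, 117, 94.8 and 103 CPM and 76.6, 70.6, 81.1 and 66.1 CPM (log2 fold change 0.49, adjusted p = 0.0319, 0.0946 without Bai1 Tg neg 4). Gnas, the stimulatory G protein alpha subunit, had 22.6, 26.3, 16.5 and 16.3 CPM and 11.1, 6.62, 9.4 and 5.95 CPM (adjusted p = 0.0273, 0.0459 without Bai1 Tg neg 4).

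None of the 28 tested RPE identity genes passed by edgeR or by DESeq2, and 2 were higher and 3 lower at an unadjusted p under 0.05, beside 4.2% and 3.8% of all genes. The fitted changes ran from -0.32 to 0.26. Mitf, the pigment cell transcription factor, had the smallest p, at 0.26 ± 0.0892 (adjusted p = 0.386), and Stra6, the receptor for retinol binding protein, had -0.19 ± 0.0674 (adjusted p = 0.389). No gene of the lists for lysosome (20 tested), circadian clock (19), interferon response (17), cell cycle (22) or Bruch membrane matrix (20) passed by edgeR, with medians of -0.03, 0.04, -0.06, -0.19 and -0.04. At an unadjusted p under 0.05 these gave 0, 0, 0, 3 and 3 genes, beside 7.99% of all genes, and DESeq2 called 0, 0, 0, 2 (higher) and 1 (lower), beside 0.349% higher and 1.18% lower of all genes. The mitochondrial genome leaned higher, 10 of 11 tested transcripts being above 0 with a median of 0.22, but 0 were called by either tool and 3 were higher at an unadjusted p under 0.05, beside the 4.2% given above. Bai1 Tg neg 4 was the highest of its set for 8 of the 11. Without it the median was 0.17 and 0 were higher at an unadjusted p under 0.05, beside 3.52% of all genes.

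Markers of other eye cells gave no call by edgeR apart from Cd68, although few members of several lists were tested (2 of 10 bipolar, 4 of 16 endothelial and 2 of 12 lens genes). The tested members of the bipolar, Müller glia, endothelial, smooth muscle, fibroblast, melanocyte and lens lists had medians between -0.60 and 0.03, 0 unadjusted p under 0.05, and 1 call each by DESeq2 on the bipolar and fibroblast lists. Of 19 inner retinal neuron genes 3 were tested. By edgeR 1 was lower at an unadjusted p under 0.05, and DESeq2 called 2 lower, beside 1.18% of all genes. Hbb-bs, the 1 tested of 7 erythroid genes, had -1.53 (adjusted p = 0.412 by edgeR) and passed the filter only through Mertk WT. Snap25, a synaptic protein on the inner retinal neuron list that photoreceptors also express, was at 1.47, 0.769, 2.42 and 0.25 CPM in Bai1 Tg neg and 3.99, 21.7, 16.9 and 8.25 CPM in Mertk WT (log2 fold change -3.45 ± 0.754, adjusted p = 0.187). Nnt, the mitochondrial transhydrogenase that is partly deleted in C57BL/6J, was at 82, 107, 81.3 and 78.1 CPM and 50.5, 50.2, 81.6 and 81.4 CPM, with Mertk WT 1 and 2 lowest (adjusted p = 0.667). Xist, the X-inactivation RNA, was at 662 to 934 CPM and 521 to 722 CPM (adjusted p = 0.411). Within 20 Mb of Mertk, 0 of 249 tested genes were called and 24 had an unadjusted p under 0.05, 9.64% against 7.99% of all genes.

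The genes called between the control sets were then read in the other 7 libraries. Bai1 Tg pos against Mertk KO shares no library with the control comparison and carries the same difference in first tag number, together with differences in Mertk genotype and transgene. In that contrast 60 genes were higher and 31 lower, 0.657% of 13855 tested. All 14 higher genes also had a fitted change above 0 there, with a median of 0.48, and 42 of the 43 tested lower genes one below 0, with a median of -1.09; over all 13300 genes tested in both, 58.9% shared a sign. Of the 14 higher genes, 0 passed by edgeR, 9 had an unadjusted p under 0.05 and 3 passed by DESeq2; among all genes the shares on that side were 0.433%, 7.87% and 1.53%. Of the 43 lower genes, 1 passed by edgeR, 24 had an unadjusted p under 0.05 and 14 passed by DESeq2, against 0.224%, 7.03% and 1.06% of all genes. The 1 called by edgeR was Fam57b, at 24.9, 30.5 and 19.7 CPM in Bai1 Tg pos and 53.1, 46.2, 62.5 and 40.2 CPM in Mertk KO (log2 fold change -1.01 ± 0.174, adjusted p = 0.0239). The exception in sign was Mylk, myosin light chain kinase, at 19.7, 75.5 and 3.22 CPM and 5.16, 3.82, 8.37 and 2.48 CPM there, next to 1.78, 1.24, 0.499 and 2.5 CPM in Bai1 Tg neg and 5.95, 11.4, 12.5 and 5.22 CPM in Mertk WT. Myh11, a myosin of smooth muscle, was high in the same libraries, at 28.4, 97.1 and 0.376 CPM in Bai1 Tg pos; its part in the Mylk values was not tested.

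**Figure D5:**
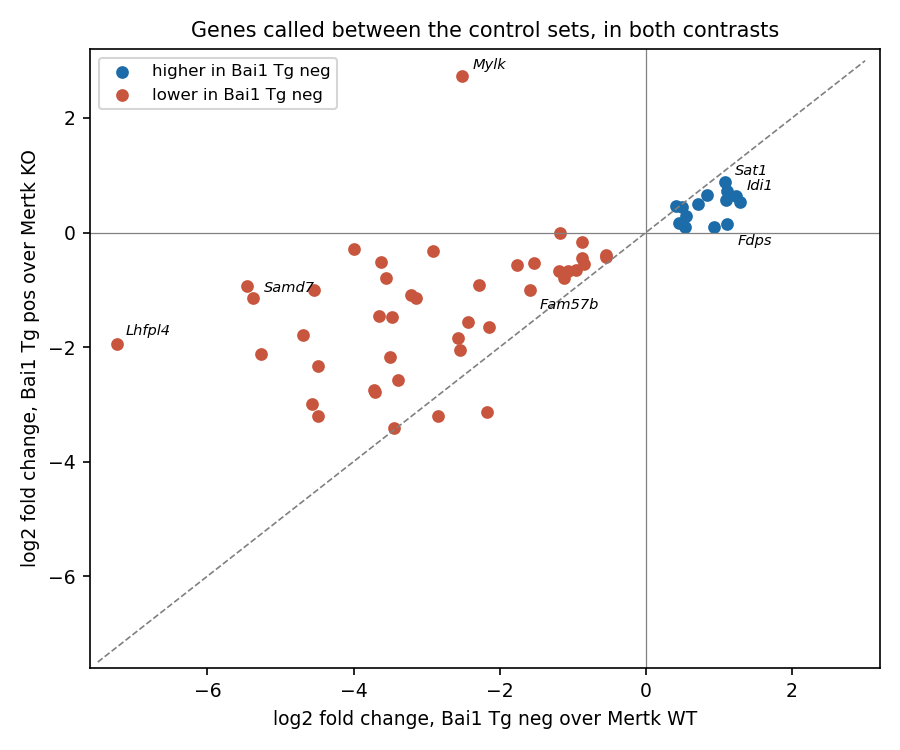
Log2 fold change of the 57 called genes tested in both contrasts, control sets on the x axis and Bai1 Tg pos over Mertk KO on the y axis; the dashed line marks equal change. Points were selected on the x axis only; all higher genes lie above 0 on both axes and all lower genes but Mylk at or below 0.

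The size of the change was smaller in the second contrast for most of these genes, which were chosen on the first. By edgeR over all 15 libraries, 0 of the 58 passed a test of the difference between the contrasts, against 0.103% of all genes. An unadjusted p under 0.05 was found for 5 of the higher and 18 of the lower genes, and for 7.53% of all genes. Of the list medians, those of the rod and immediate early genes were nearer 0 in the second contrast, that of the heat shock genes was not, and that of the sterol synthesis genes lay on the other side of 0: the rod median was -1.69 in the second contrast, the immediate early median 0.47, the heat shock median 0.20 and the sterol synthesis median -0.01, with 0 calls on any of the 4 by edgeR. Across the 13300 genes the log2 fold changes had a Pearson r of 0.353 and a Spearman rho of 0.22, a description over genes, which are not independent and share the tag difference in both contrasts.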

How the data were processed

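RPE RNA was sequenced as paired-end libraries after poly-A selection with a TruSeq kit, per the labels' protocols. Alignment used STAR and GRCm38, per the submitters' processing notes; the STAR version and the gene annotation's release were not given in the sources used here. The authors deposited whole-number counts of fragments per gene, made with featureCounts 1.5.0 over exons with both ends required and no use of strand, per the file headers. Fragments from the overlap of genes on opposite strands therefore could not be assigned by strand.

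Genes were kept by filterByExpr (0.666 CPM in 4 libraries) and tested with edgeR 4.0.16 in R 4.3.3, by its quasi-likelihood test with TMM scaling and Benjamini-Hochberg adjustment over all tested genes, at 0.05. The control contrast was fitted on its 8 libraries, Bai1 Tg pos against Mertk KO on its 7, and their difference on all 15. Values are CPM scaled by TMM over the 15 libraries; SE is the log2 fold change over the root of F. Floors (3 counts) and 95% intervals cover counting error only. No pair of libraries within a group was a duplicate, since chi-square over its degrees of freedom was at least 5.28 for each pair. On simulated data for the control contrast with 13249 genes, 87% of 2-fold and 98% of 4-fold changes were called (100 genes each), with 19 false calls. The changes were placed only in genes with higher counts, and each gene was drawn independently. These shares therefore do not cover genes at low counts, or genes that vary together between libraries, such as the rod list.

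Named were the genes with the smallest p in each direction, those on no list, the largest changes at 10 CPM or more, the leading and the most abundant list members, and Adgrb1, Mertk, Rpe65, Xist and Nnt. Gene models, overlapping genes such as Arf5, Mylk and other single list members were named after their values were seen. The comparison, the lists and the tests were chosen with earlier results of these data known. Alternatives were DESeq2 1.42.0, its size factors, no filter, a replicate block, 1 fit over 15 libraries, limma 3.58.1 (voom), photoreceptor genes left out of totals, the rod level as covariate and leaving out each library. Summing copies found with blastn 2.17.0, leaving out Mertk WT 2 and 3, and the test of the difference were added after seeing the data. Promoters came from RefSeq (GRCm38.p6) and transcripts from GENCODE vM21.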

Additional observations from a re-analysis of the deposited data

Results flagged for a closer look

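In 328 groups of 4 libraries examined, 15 held a library far from the other 3, by a rule that chance meets in about 1 of 20 groups. Bai1 Tg neg 4 stood high for Adgrb1 (143.5 CPM) and for Fads2, a fatty acid desaturase (427.6 CPM). Bai1 Tg neg 3 stood high for Ano2, a calcium-activated chloride channel (0.784 CPM), for Cacna1f, the photoreceptor calcium channel (0.57 CPM), and for Esrrb (2.21 CPM), and low for Grik1, a glutamate receptor (143.0 CPM). Bai1 Tg neg 2 stood high for Nnt (107.2 CPM).

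Mertk WT 4 stood high for Csf1r, the macrophage growth factor receptor (699.9 CPM), and low for Nfkbiz, an NF-kB regulator (37.2 CPM). It also stood apart in the mean log2(CPM + 0.5) of the RPE identity list (9.15) and of the interferon response list (2.73). Mertk WT 3 stood high for Gcc1 (46.6 CPM) and low for Ttr, the thyroid hormone carrier transthyretin (23329.8 CPM). Mertk WT 1 stood high for Myh11 (5.88 CPM) and low for Prkca, a protein kinase C (32.0 CPM).

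The set difference of Fads2 was not the same in the 2 contrasts: the log2 difference between them was -0.53 (adjusted p = 0.0299 by edgeR over all 15 libraries). Fads2 was at 387, 384, 389 and 428 CPM in Bai1 Tg neg and 510.3, 490.2, 452 and 499 CPM in Mertk WT, lower in all 4, against 452, 415 and 439.7 CPM in Bai1 Tg pos and 382, 383, 385 and 329.7 CPM in Mertk KO, higher in all 3.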

How the results depend on the processing

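The count of 58 genes called between the control sets was 249 by DESeq2, which kept all 58, 138 with no low-count filter, and 106 with a replicate block. It was 168 without Mertk WT 2 and Mertk WT 3, chosen after seeing the data, and 0 (1101 at an unadjusted p under 0.05) with the rod level as a covariate, which does not overlap between the sets. Leaving out 1 library gave 13 (without Bai1 Tg neg 1) to 89 (without Mertk WT 4), with 28 without Bai1 Tg neg 4 and 88 without Mertk WT 1. Of at least 2-fold calls there were 44, against 175 by DESeq2, 85 with no filter, 82 with the replicate block, 0 with the rod covariate, and 10 to 72 leaving out 1 library (24 without Bai1 Tg neg 4). Bai1 Tg pos against Mertk KO gave 91 calls, 387 by DESeq2, 621 with no filter, 55 with the replicate block, 137 in the fit over 15 libraries, 26 with the rod covariate, and 17 (without Mertk KO 2) to 232 (without Bai1 Tg pos 3) leaving out 1 library, with 46 without Bai1 Tg pos 1, 43 without Mertk KO 3 and 50 without Mertk KO 4. The rod median of -3.31 was -0.08 with the rod covariate, which holds those same genes, and -2.31 without Mertk WT 2 and 3; with the covariate the heat shock median was 0.66 and the sterol synthesis median 0.33. The covariate also turned Ano2 to 0.15 and Sgip1 to 0.03, the only called genes to change sign under the alternatives run. Of genes that were not called, it turned Abca4 to 0.07, Acta2 to 0.13, Ctsd to 0.04, Dock1 to 0.01, Fasn to -0.19, Fbln1 to -0.37, Gnb1 to 0.11, Grik1 to 0.27, Kcnj8 to 0.33, Mertk to 0.02, Ndrg1 to 0.63, Rpe65 to 0.43, Slc24a1 to 0.03, Thrb to 0.48, Tnfaip3 to 0.26 and Xaf1 to -0.31. Others near 0 also changed sign: Grik1 was 0.01 and Rpe65 0.02 with the replicate block, both 0.0 in the fit over 15 libraries, and Grik1 0.09, Rpe65 0.04 and Thrb 0.01 by voom. Without Mertk WT 2 and 3, Fbln1 was -0.08, Grik1 0.15, Rpe65 0.13 and Thrb 0.18. Leaving out 1 library turned Apoe to 0.01 to 0.06, Bfsp2 to 0.07 to 0.08, Grik1 to 0.07 to 0.14, Rpe65 to 0.0 to 0.12, Fbln1 to -0.0, Ramp2 to 0.1, Sox10 to 0.05 and Thrb to 0.09. The cause of these shifts was not tested. Replicate numbers did not pair the libraries: same-number correlations were -0.049 to 0.083 and others -0.14 to 0.189. What limits the number of calls was not tested.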
